A study of Mus musculus with 11 samples.

Results

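The genes of the epithelial-mesenchymal transition (EMT) described here are 6 transcription factors, Snai1, Snai2, Zeb1, Zeb2, Twist1 and Twist2, and a pair of mesenchymal markers, Vim and Cdh2. These 8 genes were chosen by name, and all 8 were found by their Entrez identifiers among the 27179 genes of each count table. RNA-seq was carried out on 11 libraries. MaSC/basal cells (CD24+CD29hi, the basal layer with its mammary stem cells), luminal progenitor (LP) cells (CD24+CD29loCD61+) and mature luminal (ML) cells (CD24+CD29loCD61-) were sorted, with 3 libraries each, from mammary glands of wild-type virgin FVB/N females, whose age the sample labels give as 8 weeks, after depletion of CD31+, TER-119+ and CD45+ cells. The name of MaSC/basal replicate 1 contains p53, although its labels give wild type. MaSC/basal cells of the same strain and age grown for 1 week in suspension with EGF, bFGF, insulin, hydrocortisone and B27 gave 1 mammosphere library, whose name may join a pair of cultures. CommaD-βGeo, a cultured line from mid-pregnancy mammary gland of Balb/c mice, labelled wild type, gave 1 library, so that strain, stage and culture differ together between this line and the sorted cells. The library batch of this line also holds no MaSC/basal library.

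EMT is the passage of a polarized epithelial cell, held to its neighbours by E-cadherin, to a motile cell with vimentin filaments and N-cadherin. The Snail (SNAI) and ZEB zinc finger proteins bind E-box motifs in the promoters of E-cadherin and of tight junction genes and repress them through corepressors, while the Twist proteins are basic helix-loop-helix factors that act with E proteins on related E-boxes. In the mammary gland Snai2, also called Slug, is known as a regulator of the basal lineage, and vimentin is found in basal cells of the normal tissue.

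Total counts ranged from 19958838 to 75795034 per library, so that 3 reads correspond to 0.0398 to 0.160 CPM, the read count relative to the TMM-scaled size of the library. Defining markers followed the sort. The summed CPM of the basal markers Krt5, Krt14, Trp63, Acta2 and Myh11 was 15217 to 20981 in MaSC/basal libraries, while LP libraries had 53.8 to 194 and ML libraries 59.3 to 349, with the highest luminal value in ML replicate 3. The luminal markers Krt8, Krt18, Kit, Esr1 and Pgr summed to 425 to 590 in MaSC/basal libraries, and LP and ML libraries had 7359 to 9598 and 7928 to 8918. In the CommaD-βGeo library the luminal markers summed to only 85.5 and the basal markers to 1508. The gene bodies lie, in GRCm38, at chr2:167538195-167542814 (Snai1), chr16:14705852-14709395 (Snai2), chr2:44983512-45117442 (Zeb2), chr12:33957671-33959831 (Twist1), chr1:91801461-91848034 (Twist2), chr2:13574311-13582826 (Vim) and, for Zeb1 and Cdh2, on chromosome 18. Every value is a count of reads over the annotated exons of the whole gene.

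In MaSC/basal cells 4 of the 8 genes stood above the luminal populations. Against the mean of LP and ML, Snai2, Cdh2, Vim and Twist2 were higher in MaSC/basal cells at an adjusted p under 0.05 in edgeR's quasi-likelihood test, none was lower, and Snai1, Zeb1, Zeb2 and Twist1 did not pass the test. The background is large: of the 15422 genes tested, 31.2% were called higher and 30.5% lower in MaSC/basal cells, and 4 of 8 is to be read against these shares. The median log2 fold change of the 8 genes was 1.10, beside -0.01 for all genes tested. All 8 passed the filter on low counts (over 0.5 CPM in at least 3 libraries). Twist2 passed it through MaSC/basal and cultured libraries alone, which are the ones in which it was high.

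**Figure D1:**
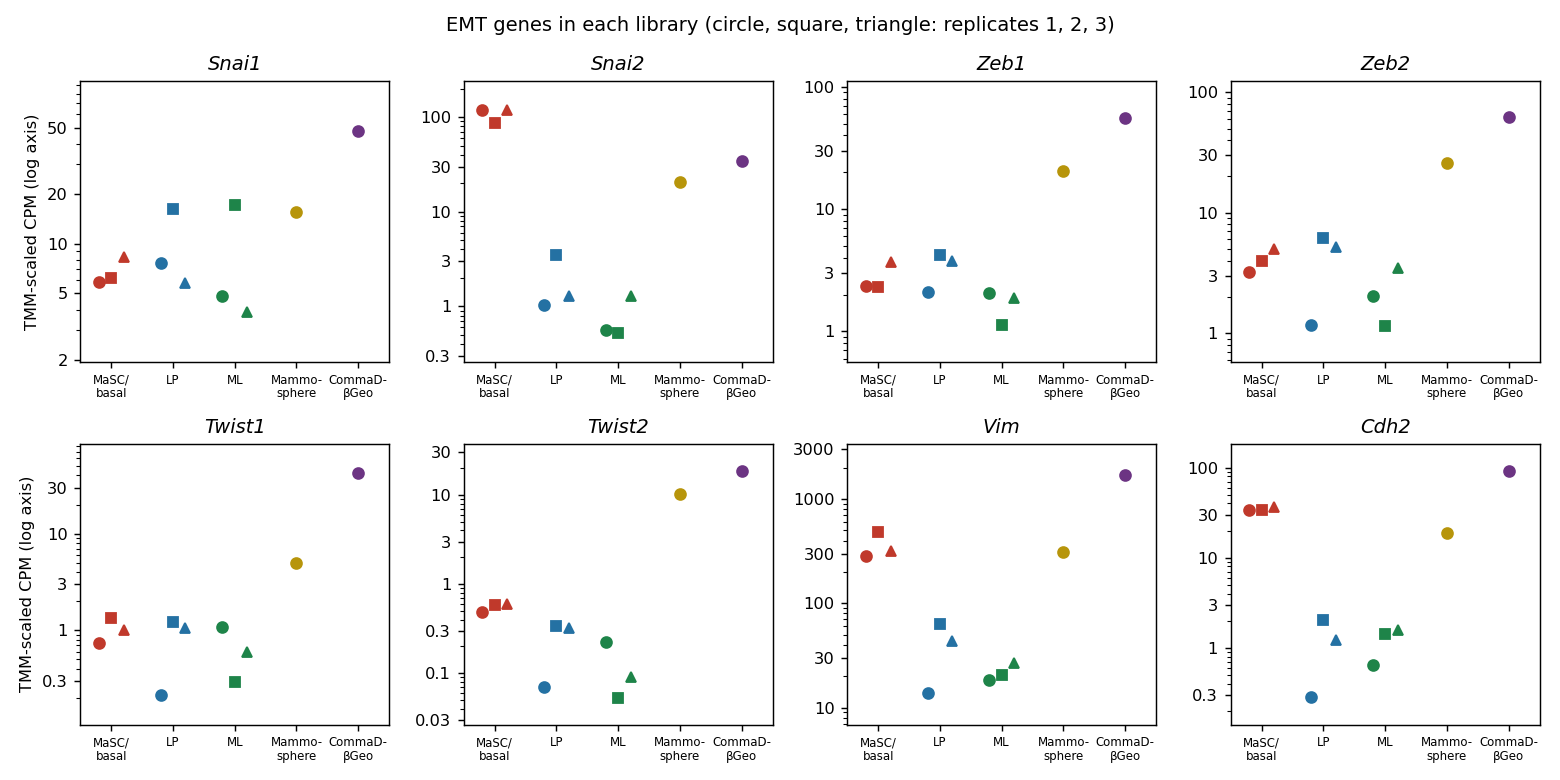
TMM-scaled CPM (log axes) of the 8 EMT genes in the 11 libraries, 1 point per library and sorted replicates 1, 2 and 3 as circle, square and triangle. Snai2, Vim and Cdh2 separate the MaSC/basal libraries from all 6 luminal ones, and Zeb1, Zeb2, Twist1 and Twist2 are highest in the mammosphere and CommaD-βGeo libraries.

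Snai2 had the largest log2 fold change of the 8 genes between MaSC/basal and luminal cells. Its level was 118, 86.8 and 120 CPM in the 3 MaSC/basal libraries, 1.02, 3.48 and 1.28 CPM in LP and 0.565, 0.518 and 1.27 CPM in ML. No luminal library came near a MaSC/basal one. The log2 fold change was 5.73 (SE 0.47, adjusted p = 5.21e-06, edgeR) against LP and 7.24 (SE 0.52, adjusted p = 1.88e-06) against ML, which is 52.9-fold and 151-fold. Both calls were kept under every alternative and with each library left out, with log2 fold changes from 5.41 to 6.56 against LP and from 6.95 to 7.65 against ML.

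Snai1, which encodes the founding Snail protein, did not follow its paralogue. It was at 5.88, 6.23 and 8.26 CPM in MaSC/basal, 7.65, 16.0 and 5.76 CPM in LP and 4.86, 17.1 and 3.87 CPM in ML cells. The populations overlapped, and the high values of LP and ML both belong to replicate 2, and these libraries share library batch 2 with MaSC/basal replicates 2 and 3. The log2 fold change was -0.55 (SE 0.54, adjusted p = 0.413, edgeR) against LP and -0.36 (SE 0.54, adjusted p = 0.588) against ML. Without ML replicate 2 the direction against ML turned, to 0.63 (adjusted p = 0.21). With the library batch as a block, which compares libraries within a batch, the log2 fold change of Snai1 was -0.90 (adjusted p = 0.0343, edgeR) against LP and -0.74 (adjusted p = 0.0426) against the mean of the luminal populations, that is, lower in MaSC/basal cells. Within batch 1 the difference in log2 CPM between MaSC/basal and LP was -0.38 and within batch 2 it was -1.16, while against ML it was 0.27 in batch 1 and -1.24 in batch 2.

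The promoter of Snai1 (RefSeq table, GRCm38.p6, 250 bases before to 50 after the start site) is shown because it holds a copy of the E-box that the SNAI and ZEB zinc fingers bind, CAGGTG or, on the other strand, CACCTG, given in capitals. The match begins 126 bases before the start site.
Snai1, chr2:167537945-167538244, plus strand: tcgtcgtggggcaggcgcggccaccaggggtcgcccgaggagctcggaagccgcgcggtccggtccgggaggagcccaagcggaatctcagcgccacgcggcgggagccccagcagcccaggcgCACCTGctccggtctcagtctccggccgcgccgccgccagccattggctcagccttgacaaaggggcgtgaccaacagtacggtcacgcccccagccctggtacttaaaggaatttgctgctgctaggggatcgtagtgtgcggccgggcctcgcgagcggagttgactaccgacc
Of the 8 genes, 5 had a promoter in this table, and no match was found in the windows of Twist1, Twist2, Vim or Zeb2. A match was present in 20.2% of all 32851 promoters of RefSeq listed there. Such a match describes the letters alone, and binding was not measured here.

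Zeb1 and Zeb2, a pair of zinc finger repressors that the miR-200 family restrains, had 33 to 327 reads per sorted library. Zeb1 was at 2.34, 2.31 and 3.69 CPM in MaSC/basal, 2.11, 4.25 and 3.74 CPM in LP and 2.06, 1.13 and 1.87 CPM in ML libraries. All 3 ML values lay below those of the other populations, and MaSC/basal and LP overlapped. The log2 fold change was -0.28 (SE 0.32, adjusted p = 0.479, edgeR) for MaSC/basal against LP, 0.75 (SE 0.33, adjusted p = 0.0766) against ML, and 1.03 (SE 0.34, adjusted p = 0.0415) for LP against ML. The last is a call close to the threshold.

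Zeb2 was at 3.24, 4.00 and 4.95 CPM in MaSC/basal, 1.16, 6.12 and 5.23 CPM in LP and 2.03, 1.16 and 3.46 CPM in ML libraries. LP spanned nearly the whole range of the other populations, with LP replicate 1 close to the lowest ML value. No comparison of Zeb2 passed the test, with log2 fold changes of -0.04 (SE 0.53) against LP, 0.93 (SE 0.54) against ML and 0.97 (SE 0.55) for LP against ML. Without LP replicate 1 the adjusted p against ML was 0.0462 for Zeb2 and 0.0463 for Zeb1, and that of Zeb2 for LP against ML was 0.0303. Zeb1 and Zeb2 have overlapping genes on the opposite strand: Zeb2os had 0 to 2 reads in the sorted libraries, 6 in mammospheres and 25 in CommaD-βGeo cells, and Gm10125, at the start of Zeb1, had 0 to 5 reads. Whether the counting used strand is not given in the sources used here, so reads of overlapping genes may be shared.

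The Twist genes, known as regulators of mesoderm, had few reads in sorted cells. Twist1 was at 0.746, 1.33 and 1.02 CPM in MaSC/basal, 0.211, 1.22 and 1.07 CPM in LP and 1.07, 0.292 and 0.592 CPM in ML libraries, from 6 to 67 reads. The populations overlapped and no comparison passed the test. Twist2 was at 0.492, 0.578 and 0.602 CPM in MaSC/basal, 0.0705, 0.337 and 0.320 CPM in LP and 0.226, 0.0531 and 0.0911 CPM in ML libraries. All MaSC/basal values lay above all luminal ones, at 29 to 32 against 2 to 18 reads, from libraries of unlike depth. As no luminal library took Twist2 past the filter, this separation is tied to the filter. The log2 fold change of Twist2 was 1.16 (SE 0.51, adjusted p = 0.0765, edgeR) against LP and 2.27 (SE 0.56, adjusted p = 0.00557) against ML. With a library left out, the value against ML ranged from 1.69 to 3.06, the highest without ML replicate 1. Against LP it passed with DESeq2 (adjusted p = 0.0446) and without ML replicate 1 (0.0485).

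Vim encodes vimentin, the intermediate filament of mesenchymal cells, and it had the highest level of the 8 genes per length. It was at 283, 481 and 319 CPM in MaSC/basal, 13.7, 62.8 and 43.7 CPM in LP and 18.2, 20.5 and 26.5 CPM in ML libraries. The lowest MaSC/basal value stood above the highest luminal one. The log2 fold change was 3.17 (SE 0.48, adjusted p = 0.000275, edgeR) against LP and 4.06 (SE 0.50, adjusted p = 6.2e-05) against ML, or 9.00-fold and 16.6-fold.

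Cdh2 encodes N-cadherin, the adhesion molecule that replaces E-cadherin in the cadherin switch. It was at 33.5, 34.1 and 36.4 CPM in MaSC/basal, 0.282, 2.04 and 1.23 CPM in LP and 0.650, 1.43 and 1.59 CPM in ML libraries. The MaSC/basal values were close together, with a mean of 34.7 ± 1.54 CPM (SD, n = 3). The log2 fold change was 4.80 (SE 0.52, adjusted p = 3.01e-05, edgeR) against LP and 4.82 (SE 0.52, adjusted p = 2.48e-05) against ML. Without LP replicate 2 the value against LP was 5.61. The luminal populations did not differ detectably, at 0.03 (SE 0.51, adjusted p = 0.976).

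**Figure D2:**
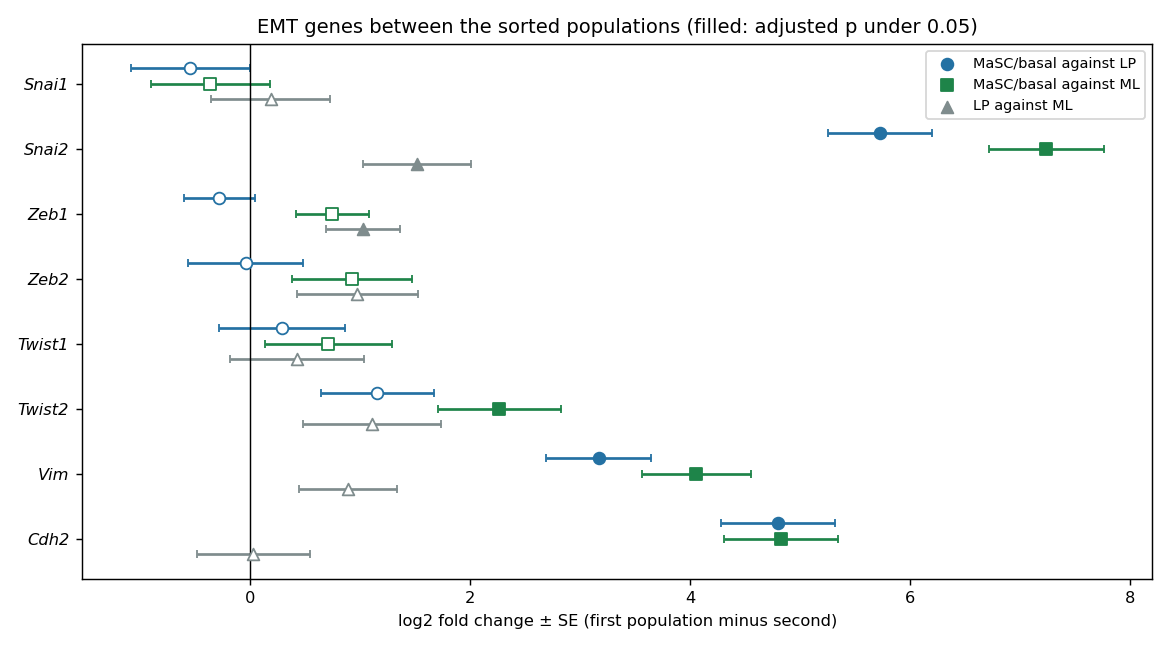
Log2 fold changes of the 8 EMT genes, with SE as bars, for the 3 pairwise comparisons of sorted populations, and filled symbols where the adjusted p of edgeR was under 0.05. Snai2, Vim and Cdh2 lie far from 0 in both comparisons of MaSC/basal cells, whereas Snai1, Zeb1, Zeb2 and Twist1 have open symbols there.

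In single comparisons 3 of 8 genes were called higher in MaSC/basal than in LP cells and 4 of 8 higher than in ML cells, with none lower. Of all genes tested, 29.4% were higher and 28% lower in MaSC/basal than in LP, and 28.9% were higher and 29.7% lower than in ML. Between LP and ML cells, 2 of 8 genes, Snai2 and Zeb1, were higher in LP and none was lower, beside 14.3% higher and 17.5% lower over all genes. For Snai2 the log2 fold change was 1.51 (SE 0.49, adjusted p = 0.0401, edgeR), although the LP and ML libraries overlapped, since ML replicate 3 at 1.27 CPM lay between LP replicates 1 and 3. Both calls ended with the library batch as a block (adjusted p = 0.057 for Snai2 and 0.0587 for Zeb1). Both also ended without LP replicate 2, with log2 fold changes of 0.69 (adjusted p = 0.243) and 0.83 (adjusted p = 0.139), without MaSC/basal replicate 1 (0.0609 and 0.0543), without ML replicate 1 (0.124 and 0.0527) and without ML replicate 2 (0.127 and 0.12), and no member was called without TMM scaling. The call of Snai2 alone ended without MaSC/basal replicate 3 (adjusted p = 0.0546), and that of Zeb1 alone without LP replicate 3 (0.0877) or ML replicate 3 (0.0689). Without TMM scaling 1581 genes were higher and 3798 lower in LP than in ML, beside 2204 and 2695 with it, and the median log2 fold change was -0.19 instead of -0.01. Without LP replicate 1, 4 of 8 genes were called, with Zeb2 at 1.44 (adjusted p = 0.0303) and Vim at 1.32 (adjusted p = 0.0118) added.

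Other cells in the sorted fractions were read from marker lists. In a bulk library a smaller share of cells of a type and less RNA per cell cannot be told apart. The 8 fibroblast markers, of which Col1a1, Col1a2 and Col3a1 are also in the mesenchymal list, were detected in every population and summed to 593 to 884 CPM in MaSC/basal, 310, 1429 and 731 CPM in LP replicates 1, 2 and 3, and 955, 414 and 593 CPM in ML replicates 1, 2 and 3. Zeb1, Zeb2, Twist1, Twist2 and Vim had the same order within LP, lowest in replicate 1 and highest in replicate 2. In ML, Zeb1, Twist1 and Twist2 were highest in replicate 1 and lowest in replicate 2, again the order of the fibroblast markers. Zeb2 and Vim did not keep it in ML: both were highest in replicate 3, and Vim was lowest in replicate 1. Within LP, Snai2, Cdh2 and the summed basal markers were also lowest in replicate 1 and highest in replicate 2. The collagen gene Col3a1 was at 97.8, 608 and 267 CPM in LP and at 288, 56.9 and 66.2 CPM in ML libraries. The single markers did not all keep the order of their sum, which 7 of 8 had in LP and 5 of 8 in ML. Pdgfra was at 29.9, 30.6 and 28.0 CPM in LP, and in ML Dcn was highest in replicate 3, at 352, 285 and 450 CPM. The part of these cells in the levels of the 5 genes was not tested.

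**Figure D3:**
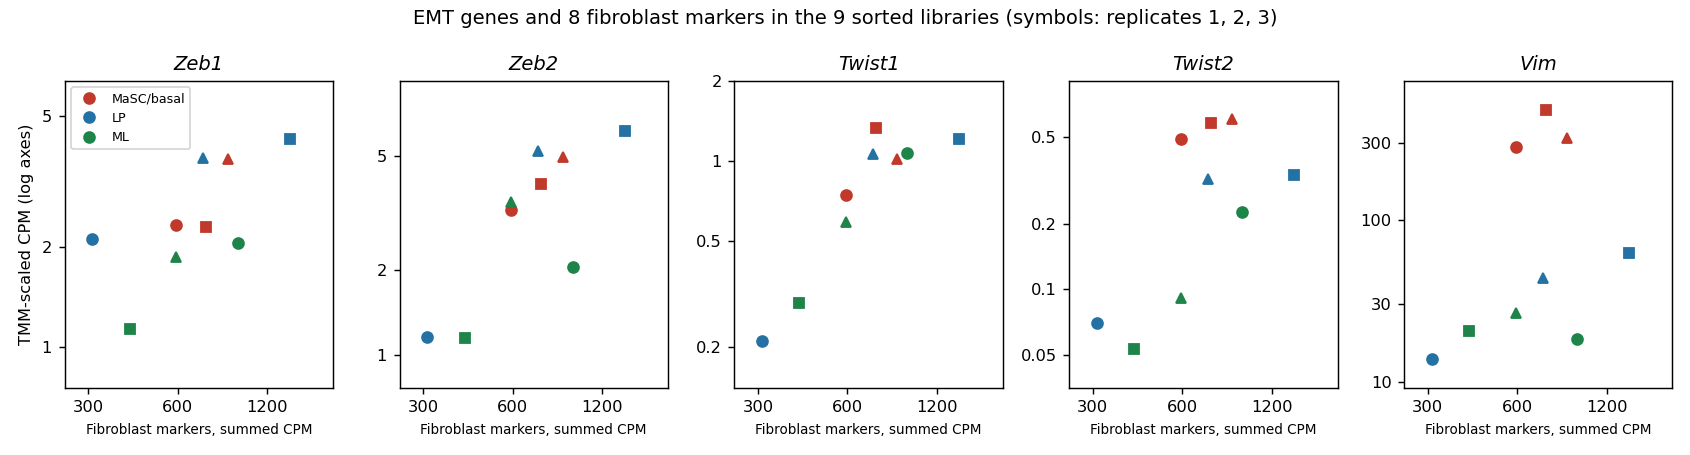
TMM-scaled CPM of Zeb1, Zeb2, Twist1, Twist2 and Vim against the summed CPM of 8 fibroblast markers in the 9 sorted libraries (log axes, 1 point per library, replicates 1, 2 and 3 as circle, square and triangle). LP replicate 1, with fibroblast markers at 310 CPM, is the lowest or next to lowest library in Zeb2, Twist1, Twist2 and Vim. LP replicate 2, at 1429 CPM, is the highest in Zeb1 and Zeb2. Vim and Twist2 are higher in every MaSC/basal than in every luminal library. The make-up of the sum differs, with the collagen genes at 71.7% of it in LP and 40.1% in ML.

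The 7 endothelial markers had a sum of 69.9 to 147 CPM in MaSC/basal libraries, 21.2 to 58.9 CPM in LP libraries and 102 to 143 CPM in ML libraries, and the 5 pericyte markers one of 33.3 to 48.9, 3.95 to 14.1 and 5.92 to 12.4 CPM. Both sums, like Vim, were higher in every MaSC/basal than in every LP library. The endothelial sum in ML rested mostly on Vwf, with a mean of 97.3 CPM in ML, 27.6 CPM in MaSC/basal and 22.7 CPM in LP cells. All other endothelial markers had a lower mean in ML than in MaSC/basal cells. Beside 31.2% of all genes, 4 of the 5 pericyte and 5 of the 7 endothelial markers were called higher in MaSC/basal than in luminal cells. The call of Pecam1, one of these, ended without LP replicate 1 (adjusted p = 0.0551, edgeR) or MaSC/basal replicate 3 (0.168), and Vwf, not called, was called lower without either (0.0308 and 0.0149) and with the library batch as a block (0.0396). The sum of the 10 blood and macrophage markers was 27.3 to 44.1 CPM in MaSC/basal libraries. LP libraries had 794 to 1254 CPM and ML libraries 165 to 596 CPM. Cd14 alone had a mean of 1012 CPM among LP libraries and 323 CPM among ML libraries, so the luminal sums rested mostly on this gene. Cd68 was also higher in LP than in MaSC/basal cells, with means of 16.3 and 5.57 CPM. Ptprc was not: its mean was 1.02 CPM in MaSC/basal cells, against 0.402 for LP and 0.492 for ML, a difference that was not called. No marker of these lists was at 0 in every library of a sorted population, and their part in the levels of the 8 genes was not tested.

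Basal markers were also read in the luminal libraries, beside Snai2, Cdh2 and Vim. As a share of the MaSC/basal mean, the 5 basal markers came to 0.298%, 1.07% and 0.593% in LP replicates 1, 2 and 3 and 0.328%, 0.468% and 1.93% in ML replicates 1, 2 and 3. Snai2 came to 0.941%, 3.2% and 1.18% in LP and 0.521%, 0.477% and 1.17% in ML. In LP the share of Snai2 was above that of the basal markers in all 3 libraries, and in ML it was below it in replicate 3. Cdh2 came to 0.813%, 5.88% and 3.54% in LP and 1.88%, 4.14% and 4.60% in ML, above the basal markers in all 6 libraries. Vim came to 3.81% to 17.4% in LP and 5.05% to 7.34% in ML. The part of MaSC/basal cells in these values was not tested.

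Per length of the counted exons (RPKM), the order of the 8 genes in MaSC/basal cells was Vim at 197 ± 57.6 (SD, n = 3), Snai2 at 53.9 ± 9.36, Cdh2 at 7.46 ± 0.33, Snai1 at 4.28 ± 0.81, Twist1 at 0.633 ± 0.18, Zeb1 at 0.479 ± 0.14, Zeb2 at 0.446 ± 0.094 and Twist2 at 0.425 ± 0.044 RPKM. The first 4 stood apart without overlap, and the last 4 overlapped with their neighbours. In LP and ML cells Vim came first, at 21.8 and 11.9 RPKM, but Snai1 came next, at 6.18 and 5.41 RPKM, and Snai2 stood among the low genes, at 0.957 and 0.390 RPKM. Vim and Snai1 overlapped in both luminal populations.

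The balance between paralogues changed sign between the lineages for the Snail pair. The log2 ratio of Snai2 to Snai1 RPKM (0.1 added to each) was 3.42 to 3.95 in MaSC/basal libraries, between -3.02 and -2.34 in LP and between -4.92 and -1.79 in ML, and it was 0.08 in the mammosphere and -0.82 in the CommaD-βGeo library. Zeb1 to Zeb2 was between -0.12 and 0.19 in MaSC/basal and between -0.19 and 1.03 in luminal libraries, the highest in LP replicate 1, and was 0.31 in the mammosphere and 0.49 in the CommaD-βGeo library. Twist1 to Twist2 was between 0.23 and 0.77 in MaSC/basal, 0.58 and 1.25 in LP and 0.99 and 1.48 in ML libraries and 0.86 in CommaD-βGeo, but -1.33 in the mammosphere library. The cadherin ratio, Cdh2 to Cdh1, was between -3.77 and -3.19 in MaSC/basal, between -10.67 and -8.93 in LP and between -9.99 and -9.02 in ML libraries, so that E-cadherin exceeded N-cadherin RNA in all 9 sorted libraries. In the CommaD-βGeo library it was 0.64, with N-cadherin RNA above E-cadherin RNA, and in the mammosphere library it was -4.68. These ratios are descriptions, with no test.

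**Figure D4:**
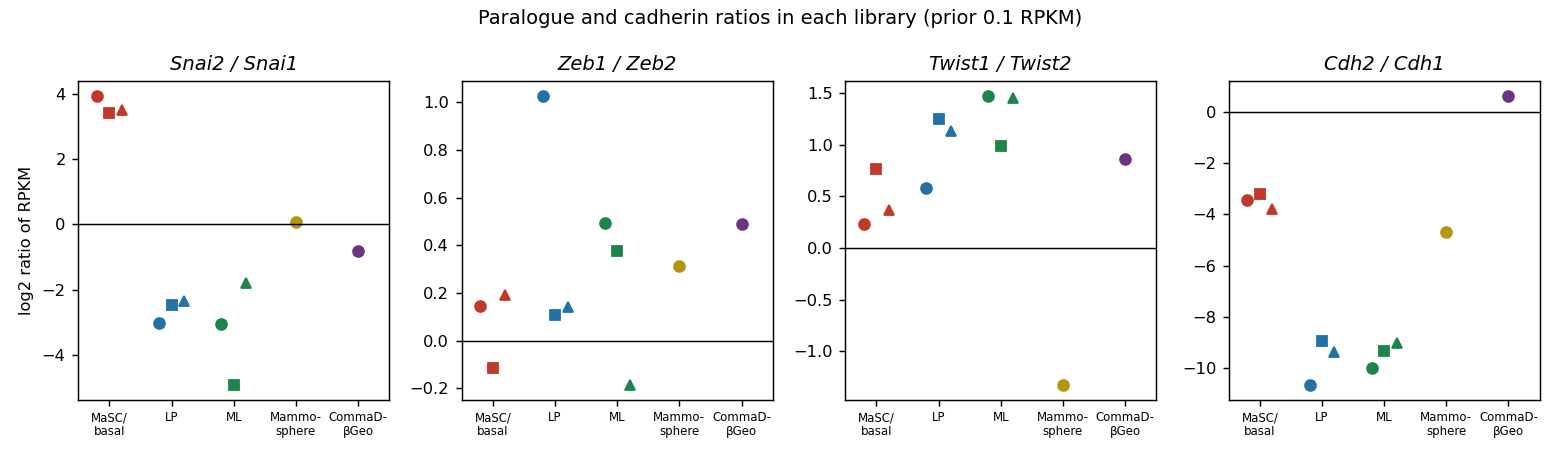
Log2 ratios of RPKM of 3 paralogue pairs and of Cdh2 to Cdh1 in each of the 11 libraries, with the line at 0 marking equal levels. Snai2/Snai1 lies at 3.42 to 3.95 in MaSC/basal and below 0 in all luminal libraries, and Cdh2/Cdh1 is above 0 in CommaD-βGeo cells only.

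The cultured cells were compared with the MaSC/basal mean, with 1 library each and therefore without a test. The mammosphere library shares library batch 1 with MaSC/basal replicate 1. The CommaD-βGeo library shares no batch with a MaSC/basal library, so batch cannot be told apart from the other differences of this line. Intervals (exact Poisson, 95%) cover counting error only, and a gene was counted as past the fold at a log2 difference over 1 in log2 CPM. In mammospheres Snai1, Zeb1, Zeb2, Twist1 and Twist2, 5 of 8 genes, were higher past this fold and Snai2 was lower, beside 19.7% of all genes higher and 20% lower. Zeb1 was at 20.5 CPM (19.2 to 21.9), Zeb2 at 25.7 CPM (24.2 to 27.2), Twist1 at 4.98 CPM (4.34 to 5.68) and Twist2 at 10.3 CPM (9.35 to 11.3). Each of these stood above all 9 sorted libraries, by 4.82, 4.20, 3.73 and 17.1 times the highest of them. Snai1, at 15.5 CPM (14.3 to 16.7), lay within the range of the sorted libraries. Snai2, at 20.7 CPM (19.4 to 22.1), was 5.18-fold below the MaSC/basal mean and still above every luminal library. Vim, at 310 CPM (305 to 315), lay within the MaSC/basal range, and Cdh2, at 18.6 CPM (17.3 to 19.9), was lower by a log2 difference of -0.90.

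In CommaD-βGeo cells 7 of 8 genes were higher past the fold and Snai2 was lower, beside 16.9% of all genes higher and 24.8% lower. Twist1 was at 42.6 CPM (40.3 to 45.0), 31.9 times the highest sorted library, and Twist2 at 18.8 CPM (17.2 to 20.4), 31.2 times. Zeb1 reached 55.7 CPM (53.0 to 58.5) and Zeb2 62.0 CPM (59.2 to 64.9), 13.1 and 10.1 times the highest sorted library. Snai1 was at 47.7 CPM (45.2 to 50.2), Vim at 1694 CPM (1679 to 1709) and Cdh2 at 91.8 CPM (88.4 to 95.4), all 3 above every sorted library. Snai2, at 34.2 CPM (32.2 to 36.4), was the exception, 3.13-fold below the MaSC/basal mean. Cdh1, at 55.7 CPM (53.0 to 58.4), was 6.63-fold below the MaSC/basal mean and 0.0472 times the highest sorted library. The 8 fibroblast markers summed to 2467 CPM in mammospheres and 3669 CPM in CommaD-βGeo cells and the 5 pericyte markers to 210 and 342 CPM, each above all sorted libraries. These sums rested on few genes. In the line 4 of 8 fibroblast markers, Pdgfra and the 3 collagen genes, lay above the MaSC/basal mean and Dcn, Lum, Dpt and Fap below it, and Pdgfrb alone, at 341 CPM, made up nearly the whole pericyte sum, with the other 4 pericyte markers below the MaSC/basal mean. In mammospheres 7 of 8 fibroblast markers, all but Dcn, and 2 of 5 pericyte markers, Pdgfrb and Cspg4, lay above it. In the line 4 of the 10 blood markers, Adgre1, Tyrobp, Cd3e and Hbb-bs, and the endothelial genes Tie1 and Vwf had no read. Their part in these differences was not tested.

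The genes whose log2 CPM followed each member most closely over the 11 libraries, among 13891 genes with a mean of at least 1 CPM, are given for each member. For Snai2 they were Matn2 (Pearson's r = 0.994), Col7a1 (0.993) and P2ry1 (0.993). For Zeb1 they were Lox (0.985), Flrt2 (0.983) and Thbs2 (0.981), and for Zeb2 Plscr4 (0.968), Lox (0.966) and Tgfbi (0.966). Twist1 was followed by Bmper (0.987), Tspan11 (0.974) and Pcolce (0.973) and Twist2 by Cdh11 (0.982), Edil3 (0.979) and Pdgfrb (0.975). The leading genes were Snx24 (0.986), Prkg2 (0.984) and Tenm3 (0.983) for Vim and Bnip2 (0.991), Tenm3 (0.990) and Slc12a4 (0.990) for Cdh2. Snai1 had the loosest companions, Brap (0.938), Naa35 (0.922) and Stim2 (0.921). These values are a description over 11 libraries, which share sample types and batches.

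Genes of epithelial adhesion and polarity, several of them known targets of repression by the Snail and ZEB proteins, were mostly lower in MaSC/basal cells. Of 23 epithelial adhesion and polarity genes, all tested, 21 were lower in MaSC/basal than in luminal cells (mean of LP and ML), 1 was higher and 1 was not called. Beside this, 30.5% of all genes were lower and 31.2% higher. This list and those below were chosen with earlier results of these data known, so their counts beside these shares are a description, not a test. The median log2 fold change was -3.81, beside -0.01 for all genes. The list also holds Muc1 and the keratin genes Krt8, Krt18 and Krt19. Krt8 and Krt18 served above as luminal markers, so their lower level restates the sort. The lowest were Ocln, the tight junction protein occludin (log2 fold change -5.58, SE 0.21, adjusted p = 3.95e-08, edgeR), Cldn4 (-5.54, SE 0.29, adjusted p = 1.57e-07) and Cldn7 (-5.37, SE 0.20, adjusted p = 3.73e-08), both claudins. Cdh1, the E-cadherin gene, was at -1.55 (SE 0.18, adjusted p = 2.94e-05), with 376 ± 92.2 CPM (SD, n = 3) in MaSC/basal and 1106 ± 67.1 CPM (SD, n = 6) in luminal libraries. Dsp, the desmosomal protein desmoplakin, was the gene that was higher (1.37, SE 0.16, adjusted p = 3.32e-05).

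The promoters of these genes were searched for the same E-box. Of 17 genes of the adhesion and polarity list with a promoter in the RefSeq table, 16 (94.1%) held CAGGTG or CACCTG in at least 1 window, beside 22.6% of 27025 genes. Other lists lay on both sides of this share. It was 60% for the 5 luminal markers, 44.4% for 9 regulators of the epithelial state (listed below) and 33.3% for 3 basal markers. For 11 genes of the mesenchymal list it was 9.09%, and for the 5 members 20%. Krt8 and Krt18, both with a match, count in the adhesion and in the luminal list. Matches did not follow direction within the adhesion and polarity list. Dsp, which was higher in MaSC/basal cells, held a match, as did Patj, which was not called (-0.17, adjusted p = 0.273, edgeR). Jup, which was called lower, was the gene without a match. Cdh1 had no promoter in the table. No test was made. The windows of Crb3, a polarity gene with 4 matches, Epcam, the adhesion molecule of simple epithelia, and Cldn4 are shown as examples, with the motif in capitals.
Crb3, chr17:57061951-57062250, plus strand: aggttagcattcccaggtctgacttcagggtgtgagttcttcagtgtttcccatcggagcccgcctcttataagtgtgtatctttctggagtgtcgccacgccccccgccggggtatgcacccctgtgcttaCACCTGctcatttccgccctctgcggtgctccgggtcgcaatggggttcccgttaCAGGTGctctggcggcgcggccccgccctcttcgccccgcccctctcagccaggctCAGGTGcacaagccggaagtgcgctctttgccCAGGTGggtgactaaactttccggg
Epcam, chr17:87635729-87636028, plus strand: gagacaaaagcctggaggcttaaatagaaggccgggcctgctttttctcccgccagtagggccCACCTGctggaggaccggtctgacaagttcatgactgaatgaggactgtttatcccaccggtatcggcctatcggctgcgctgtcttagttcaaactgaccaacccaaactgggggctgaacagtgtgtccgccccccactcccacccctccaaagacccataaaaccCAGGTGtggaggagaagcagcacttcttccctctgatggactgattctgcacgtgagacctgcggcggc
Cldn4, chr5:134946885-134947184, minus strand: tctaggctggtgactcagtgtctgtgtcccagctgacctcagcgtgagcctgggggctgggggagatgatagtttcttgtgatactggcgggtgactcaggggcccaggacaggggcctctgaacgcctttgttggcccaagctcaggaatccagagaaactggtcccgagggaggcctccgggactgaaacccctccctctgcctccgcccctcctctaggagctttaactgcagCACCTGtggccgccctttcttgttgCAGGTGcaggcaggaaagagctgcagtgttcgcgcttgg
In Crb3 the matches begin at -118, -63, -7 and 26 from the start site, in Epcam at -187 and -19 and in Cldn4 at -14 and 12. Crb3 was at 3.83 ± 0.32 CPM in MaSC/basal (SD, n = 3) and 55.9 ± 5.02 CPM in luminal libraries (SD, n = 6), 32.8 CPM in mammospheres and 1.56 CPM in CommaD-βGeo cells. Epcam was at 594 ± 94.0 and 2407 ± 326 CPM and at 713 and 88.1 CPM in the cultured libraries. Cldn4 was at 62.0 ± 14.4 and 2911 ± 684 CPM and at 526 and 9.69 CPM.

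Regulators that hold the epithelial state, among them the Grhl and Ovol factors that repress Zeb1 and the Esrp splicing factors, followed in part. Of 15 genes, 10 were lower in MaSC/basal than in luminal cells, none was higher and 5 were not called, with a median of -1.07. Among all genes 30.5% were lower and 31.2% higher. Ehf (-5.22, adjusted p = 1.18e-07, edgeR), Elf5 (-5.21, adjusted p = 2.55e-07) and Foxa1 (-5.11, adjusted p = 2.09e-07), all of them luminal transcription factors, were the lowest. Of the Grhl and Ovol factors, Grhl1 (-2.59, adjusted p = 4.24e-07) and Ovol2 (-1.07, adjusted p = 0.0103) were lower. Grhl2 (-0.28, adjusted p = 0.109), Grhl3 (-0.40, adjusted p = 0.483) and Ovol1 (-0.60, adjusted p = 0.15) were not called. The hairpin genes of the miR-200 family, which target Zeb1 and Zeb2, and of other EMT-linked miRNAs could not be read from these libraries: the 10 genes had at most 14 reads in 1 library and none passed the filter.

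Mesenchymal genes other than the members divided. Of 21, 12 were higher in MaSC/basal than in luminal cells, none was lower and 9 were not called, with a median of 0.70. Over the whole set tested, 31.2% of genes were higher and 30.5% lower. Among the 12, Pdgfrb is also a pericyte marker. The comparison is with the mean of LP and ML, and Mmp14 and Cd44 were not above both. Mmp14 had a mean of 251 CPM in MaSC/basal and 314 CPM in ML cells. Cd44 had 431 CPM in MaSC/basal and 599 CPM in LP cells. Sparc, a secreted matrix protein, led (5.41, SE 0.38, adjusted p = 1.01e-06, edgeR), with Axl, a receptor tyrosine kinase (4.30, SE 0.20, adjusted p = 8.33e-08), and Mmp2, a matrix metalloproteinase (4.29, SE 0.42, adjusted p = 1.12e-05). Among the 9 that were not called were the fibronectin gene Fn1 (0.57, SE 0.44), Lox (0.34, SE 0.50) and the collagen genes Col1a1, Col1a2 and Col3a1 (0.43, 0.46 and 0.32).

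**Figure D5:**
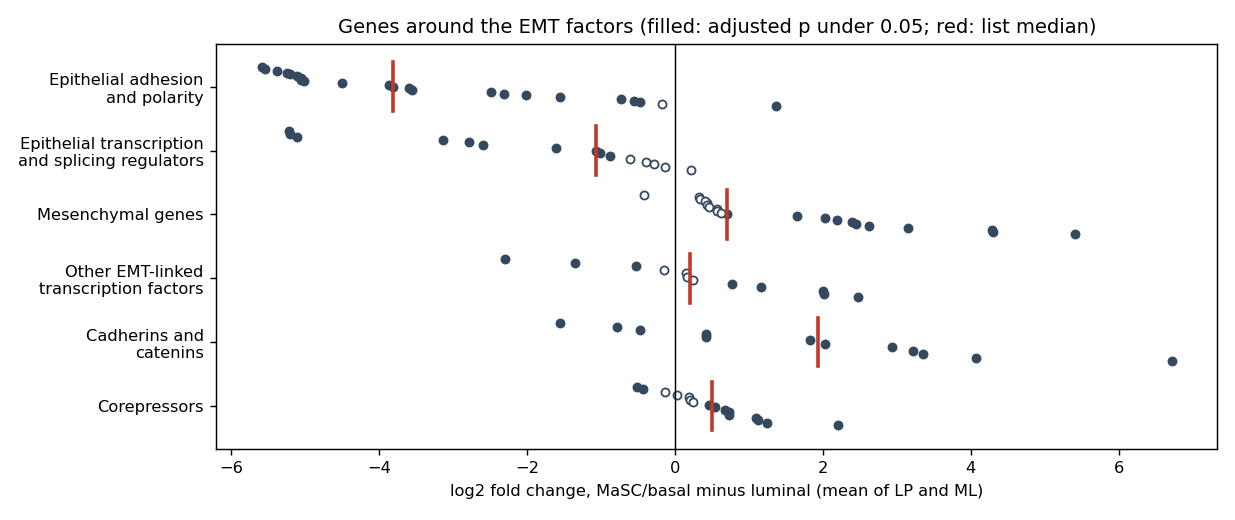
Log2 fold changes between MaSC/basal and luminal cells (mean of LP and ML) of the tested genes of 6 lists, 1 point per gene, filled where the adjusted p was under 0.05, with the list median in red. The epithelial adhesion and polarity genes have a median of -3.81, and the mesenchymal genes one of 0.70 with an uncalled group near 0.

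Of 13 further EMT-linked transcription factors 12 were tested, and 5 were higher and 3 lower in MaSC/basal than in luminal cells, counts near the 31.2% higher and 30.5% lower over all genes. Hmga2 passed the filter through MaSC/basal and cultured libraries alone. Hmga2 (2.48, adjusted p = 2.32e-05, edgeR), an architectural chromatin protein, Prrx1 (2.01, adjusted p = 0.000459) and Snai3, another Snail paralogue (2.00, adjusted p = 0.00433), were higher, and Foxc1 (-1.35, adjusted p = 0.000221) and Tcf12 (-0.52, adjusted p = 0.00279) were lower. Snai3 and Snai2 were both lower in culture, Snai3 being at 11.1 ± 4.64 CPM in MaSC/basal cells (SD, n = 3), 0.158 CPM in mammospheres and 0.476 CPM in CommaD-βGeo cells. Prrx1, at 15.3 ± 1.72 CPM in MaSC/basal cells, was at 98.4 and 330.2 CPM in these libraries, and Hmga2, at 1.27 ± 0.46 CPM, was at 63.8 and 161 CPM.

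Around Cdh2, all 12 tested genes of 13 cadherins and catenins were called, 9 of them higher and 3 lower in MaSC/basal cells. The shares over all genes were 31.2% higher and 30.5% lower. Of the 9, Cdh5 is also an endothelial marker above and Cdh11 is also in the mesenchymal list. Of the 3, Cdh1 and Jup are also in the adhesion and polarity list. Cdh3, P-cadherin, was higher by 6.72 (SE 0.43, adjusted p = 5.62e-07, edgeR), beside 4.81 for Cdh2, from 3.19 ± 1.96 CPM (SD, n = 6) in luminal to 337 ± 16.3 CPM (SD, n = 3) in MaSC/basal libraries. Cdh6 (4.07, adjusted p = 0.00163) and Cdh4 (3.35, adjusted p = 0.0001) were also higher. Without ML replicate 3 Cdh6 was at 5.64, and it was at 5.49 with the library batch as a block and at 5.06 with limma voom. Cdh4, with mean levels of 1.06 (MaSC/basal), 0.0475 (LP) and 0.272 CPM (ML), could pass the filter only with the MaSC/basal libraries, so that its place among the called genes is tied to the filter. Cdh1, Ctnnd1, which encodes p120 catenin (-0.78, adjusted p = 0.000349), and Jup, plakoglobin (-0.47, adjusted p = 0.0361), were lower. Around Vim, 6 of 10 other intermediate filament genes were tested, with 4 higher and 1 lower, to be read against the same shares. Of the 4, Nefl, a neurofilament gene (0.792 CPM in MaSC/basal and 0.0228 CPM in luminal libraries), passed the filter through MaSC/basal libraries alone. Its place among the called genes is therefore tied to the filter. Synm (4.71, adjusted p = 6.26e-08), Des (2.29, adjusted p = 0.000653) and Nes (1.16, adjusted p = 0.000687), which encode the muscle-type filament proteins synemin and desmin and the progenitor filament nestin, were higher, and the nuclear lamin gene Lmna was lower (-0.58, adjusted p = 0.0202). The call of Jup ended in 7 of 9 fits that left out a library (adjusted p from 0.0528 to 0.125), all but those without LP replicate 3 or ML replicate 3, and that of Lmna without MaSC/basal replicate 1 (0.056) or 2 (0.0952).

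Of 16 corepressors of the Snail and ZEB proteins, all tested, 9 were higher and 2 lower in MaSC/basal cells, with a median of 0.50. This stands beside 31.2% higher and 30.5% lower over all genes. Ajuba, a LIM protein of the SNAI complex, rose most (2.20, SE 0.25, adjusted p = 3.44e-05, edgeR), with Wtip of the same family (1.24, adjusted p = 0.000234) and the histone methyltransferase gene Suv39h1 (1.12, adjusted p = 5.4e-05), whereas Ehmt2 (-0.51, adjusted p = 0.0278) and Limd1 (-0.43, adjusted p = 0.00424) were lower. Of 10 kinases and ubiquitin ligases that act on SNAI proteins, no more were called than among all genes (31.2% higher, 30.5% lower): 3 were higher, Lats2 (0.89, adjusted p = 0.00338), Fbxo11 (0.85, adjusted p = 0.0037) and Mdm2 (0.47, adjusted p = 0.00505), and 2 lower, Gsk3b (-0.60, adjusted p = 0.00544) and Pak1 (-0.46, adjusted p = 0.0318). RNA levels do not give the amounts of SNAI protein, which these enzymes act on. The calls of Ehmt2 (adjusted p from 0.0512 to 0.123, the highest without MaSC/basal replicate 3) and Pak1 (0.0508 to 0.133, the highest without MaSC/basal replicate 2) each ended in 4 fits that left out a library and without TMM scaling.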

How the data were processed

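Single-end reads were aligned by the authors to mm10 with Rsubread, featureCounts assigned them to Entrez genes, and the deposited values are raw counts per gene with a gene length. TruSeq kits differed between library batch 1 and batches 2 and 3. The handling of multi-mapping reads is not given in the sources used here. Symbols came from RefSeq (25275 genes) and GENCODE (17 genes). The main test was that of edgeR 4.0.16 (R 4.3.3): genes over 0.5 CPM in at least 3 libraries (15422) were retained, TMM factors were computed, a quasi-likelihood model with 5 group means was fitted to 11 libraries, and p-values were adjusted by Benjamini-Hochberg over all genes, with calls at FDR under 0.05. Log2 CPM used a prior count of 2. RPKM used the deposited gene length. The script was tested on simulated data. Replicates are separate samples, so p-values measure the spread between them.

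The library batch in the labels pairs the samples. Batch 1 holds replicate 1 of each population and the mammosphere library. Batch 2 holds MaSC/basal 2 and 3, LP 2 and ML 2. Batch 3 holds LP 3, ML 3 and the CommaD-βGeo library, and no MaSC/basal library. Deviations from the population means correlated within a batch at -0.118 to 0.526 over 15422 genes, and the fit with this pairing is an alternative. Others were DESeq2 size factors and DESeq2 1.42.0, limma 3.58.1 voom, no scaling, other filters, the 9 sorted libraries alone and leaving out each library. The genes and lists were chosen with earlier results of these data known. Named were the members, for each list the 3 genes per direction with the largest called change and at least 1 CPM in the higher population, overlapping genes, the most abundant markers, and the 3 genes most like each member. Col1a1, Col1a2, Pdgfra, Lum, Dpt, Fap, Nefl, Fn1, Lox, Crb3, Epcam, Ptprc, Tie1, Adgre1, Tyrobp, Cd3e and Hbb-bs were named after their values were seen. Grhl1, Grhl2, Grhl3, Ovol1, Ovol2, Patj, Mmp14 and Cd44 were also named after their values were seen.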

Additional observations from a re-analysis of the deposited data

How the results depend on the processing

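Between MaSC/basal and luminal cells the calls of Snai2, Vim and Cdh2 were kept under all alternatives, and Twist2 kept its calls against ML and against the luminal mean wherever it was tested, which excludes the filter at 1 CPM. The calls between LP and ML cells depended on the processing: of 8 genes, 2 were called in the fit as reported, 1 with limma voom, 1 with the 9 sorted libraries only, 0 without a scaling factor and 0 with the library batch as a replicate block, and 0 to 4 with a library left out (0 without MaSC/basal replicate 1, LP replicate 2 or ML replicates 1 or 2, and 4 without LP replicate 1). Among the fits that left out a library, 3083 of all genes were called between LP and ML without ML replicate 1, the lowest. The highest of these fits was 5205, without MaSC/basal replicate 3. More were called with the library batch as a replicate block (5638), with DESeq2 (5569) and without a scaling factor (5379). Without a scaling factor the median over all genes was 0.14 instead of -0.01 for MaSC/basal against LP. The pairing by batch, besides ending the calls of Snai2 and Zeb1 between LP and ML, added Snai1 (against LP and against the luminal mean) and Vwf to the calls and changed no other call among the members and the genes given by the naming rule. The alternatives were not run for the genes named after their values were seen.

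Directions that turned belonged to genes that were not called. For MaSC/basal against LP, Zeb2 was at 0.086 without a scaling factor, 0.18 with limma voom and 0.23 with the replicate block, and from -0.50 to 0.36 with a library left out, and Twist1 was at -0.18 to 0.76 with a library left out. Against ML, Snai1 ranged from -0.71 to 0.63. For LP against ML, Cdh2 was at -0.14 without a scaling factor, -0.24 with limma voom and -0.0076 with the replicate block, and with a library left out it ranged from -0.78 to 0.50, Snai1 from -0.36 to 1.17 and Twist1 from -0.047 to 1.07. Against the luminal mean, Snai1 ranged from -0.63 to 0.041 and Zeb1 from -0.013 to 0.36. The intermediate filament list had 3 to 5 genes called with a library left out, with 3 without MaSC/basal replicate 1 or 2. With 0.01 added to RPKM the log2 ratio of Twist1 to Twist2 in ML cells was 2.00. The cause of these changes was not tested. Depth limits Twist2 most, with 2 to 18 reads in luminal libraries. 1 library per cultured sample gives no replicate error.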
